A study of Mus musculus with 24 samples.

Results

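The genes of lymphocyte egress and lymph node homing described here are 6 of the 32285 genes in the count matrices: the sphingosine 1-phosphate receptors *S1pr1*, *S1pr4*, and *S1pr5*, the transcription factor *Klf2*, the chemokine receptor *Ccr7*, and *Cd69*. The members were chosen by gene symbol with results of these data known, and the choice rested on the statement that *S1pr5* and *Ccr7* rose with the PancVAX vaccine. The values of the members with and without PancVAX are therefore given as a description with no test, and tests of the members across these pools are of the antibodies. All 6 members were found in the matrices once each.

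Sphingosine 1-phosphate is high in blood and lymph and low inside tissues, and lymphocytes that carry S1PR1 follow this gradient out of a tissue. KLF2 is a transcription factor that drives *S1pr1* in resting T cells, and its loss is a known trait of activated and tissue-resident T cells. CD69, an early activation antigen, binds S1PR1 at the membrane and takes it off the cell surface, which holds cells in place. CCR7 guides naive T cells, B cells, and mature dendritic cells to lymph nodes along CCL19 and CCL21. S1PR5 is known from the exit of NK cells and short-lived effector T cells, and S1PR4 is a further receptor of blood cells.

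The data were single-cell RNA sequencing counts of s.c. Panc02 tumors, a mouse pancreatic cancer line grown in male C57BL/6 mice. Tumors were harvested on day 38 from 8 treatments: Isotype Control, Anti-PD-1, Anti-CTLA-4, Anti-PD-1 + Anti-CTLA-4, PancVAX, PancVAX + Anti-PD-1, PancVAX + Anti-CTLA-4, and the triple combination PancVAX + Anti-PD-1 + Anti-CTLA-4. PancVAX, a vaccine of neoantigen peptides at 50 µg of each peptide, was injected on days 12 and 19 with an adjuvant and a STING agonist. Mice without it received saline. Mice received 100 µg of anti-CTLA-4 on days 15 and 22 and 100 µg of anti-PD-1 repeatedly from day 12, and isotype antibodies took their place in the control mice. Each treatment had 1 library of the dissociated whole tumor and 1 library of cells enriched on a Percoll density gradient, 16 RNA libraries in all, and the 8 Percoll libraries also had T cell receptor sequences.

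Mice of a treatment were pooled, so a treatment is 1 pool here, with both of its libraries summed unless stated, and 4 pools had PancVAX while 4 did not. *P* values measure the spread between these pools, or between the libraries where libraries are fitted, and not between mice, and nothing in the labels says how many mice a pool holds. The preparations were also sequenced as separate batches, so preparation and batch cannot be told apart.

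Of 144994 barcodes, 57357 passed the filters on cells, and library totals ran from 77132398 to 176233225 unique molecular identifiers (UMIs), each a counted RNA molecule. The median passed cell of a library held 2782 to 4193 UMIs. Pairs of libraries shared 5 to 45 barcodes, at most 1.262%. The use of T cell receptor beta V genes (35 genes) matched every one of the 8 Percoll libraries best to the whole-tumor library of its own treatment, and 7 of the 8 whole-tumor libraries best to their own Percoll library. Cells were placed in gates by UMIs of marker genes, with none of the 6 members among them: 9581 CD8 T cells, 1031 Foxp3-negative and 452 Foxp3-positive CD4 T cells, 360 NK cells, 2487 B cells, and 4 gates of dendritic cells. The Foxp3-positive gate took T cells with a *Foxp3* UMI and without a CD8 UMI, whether or not *Cd4* was seen. The Foxp3-negative gate required a *Cd4* UMI and may hold cells whose *Foxp3* was missed.

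CD8 T cells were divided further into 1213 cells with cycling markers, 576 Pdcd1+ Havcr2+ cells, which carry markers of exhaustion, 436 Pdcd1+ Havcr2- cells with *Tcf7* or *Slamf6*, which mark stem-like exhausted cells, 2091 Ly6c2+ Pdcd1- cells, 1007 cells with the naive markers *Lef1* or *Dapl1*, and 4258 other cells. A level below is in CPM, the UMIs of a gene per 1000000 UMIs of the gate in 1 pool. Levels are compared between gates or pools for 1 gene at a time, never between genes.

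The members stood at different places across the 19 gates. The heat map of mean levels shows *S1pr1* highest in endothelial cells, *S1pr5* in NK cells, *Klf2* and *Cd69* in B cells, *S1pr4* in Ly6c2+ CD8 T cells, and *Ccr7* in mature-marker dendritic cells. Only the last of these leading gates stood clear of the gate that followed it in all 8 pools.

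**Figure D1:**
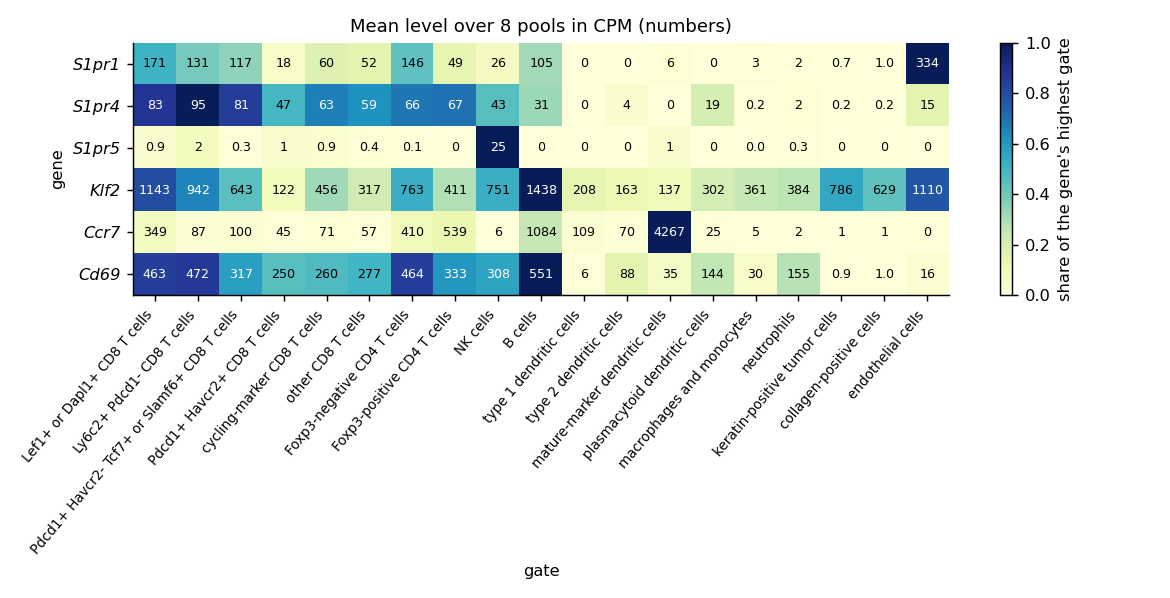
Mean level of each gene (rows) in 19 gates (columns) over 8 pools, printed in CPM and colored as a share of the gene's highest gate. *Ccr7* at 4267 in mature-marker dendritic cells and *S1pr5* at 25 in NK cells are the most restricted patterns, and *Klf2* is at least 122 in every gate.

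Among the receptors, *S1pr1* (ENSMUSG00000045092; chromosome 3, 115710433 to 115715055 in GRCm38.p6) had its highest mean in endothelial cells, 334 ± 94.6 (SD, n = 8 pools), where the receptor is known from vessel integrity. Lymphocyte gates followed with 171 ± 39.0 in Lef1+ or Dapl1+ CD8 T cells, 146 ± 56.99 in Foxp3-negative CD4 T cells, 131 ± 75.8 in Ly6c2+ CD8 T cells, and 105 ± 12.1 in B cells. These gates overlapped each other in range, so their order is not settled by these pools.

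At the low end, *S1pr1* was 26.1 ± 6.33 in NK cells and 18.2 ± 21.4 in Pdcd1+ Havcr2+ CD8 T cells. It was 0 in every pool for type 1, type 2, and plasmacytoid dendritic cells, and 0.708 ± 0.973 in keratin-positive tumor cells.

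*S1pr4* (ENSMUSG00000044199; chromosome 10, 81497745 to 81500137) was spread more evenly over lymphocytes. Its mean was 95.3 ± 46.6 in Ly6c2+ CD8 T cells, 66.7 ± 33.7 in Foxp3-positive CD4 T cells, 43.4 ± 11.2 in NK cells, and 30.9 ± 13.6 in B cells, each range overlapping the next in order. Mature-marker and type 1 dendritic cells had no UMI of it.

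*S1pr5* (ENSMUSG00000045087; chromosome 9, 21242917 to 21248443) was rare. NK cells held 28 UMIs in 360 cells, and 7.22% of them had at least 1 UMI, against 0.0606% of 6597 neutrophils, which should lack the gene and had a median of 1496 UMIs a cell where NK cells had 3090. By pool, NK cells stood at 59.5, 32.3, 0, and 16.2 with PancVAX (alone, with both antibodies, with anti-PD-1, and with anti-CTLA-4). They stood at 31.5, 25.8, 6.67, and 29.4 without it (both antibodies, anti-CTLA-4, anti-PD-1, and isotype).

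The next gate, Ly6c2+ CD8 T cells, had a mean of 2.18 ± 2.96 for *S1pr5*. The NK pool at 0 holds 44 cells, so the ranges of both gates overlap.

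*Klf2* (ENSMUSG00000055148; chromosome 8, 72319062 to 72321654) was present in every gate. B cells led with 1438 ± 397, then Lef1+ or Dapl1+ CD8 T cells with 1143 ± 221, endothelial cells with 1110 ± 537, in which the factor is known to respond to blood flow, and Ly6c2+ CD8 T cells with 942 ± 242. The lowest mean of the 19 gates was 122 ± 59.4 in Pdcd1+ Havcr2+ CD8 T cells. Keratin-positive tumor cells also expressed *Klf2*, at 786 ± 350.

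Stretches of 250 bases upstream of the gene start were at hand for *S1pr4*, *S1pr5*, and *Klf2* in the RefSeq annotation of GRCm38.p6, 3 of the 6 members, and are shown because these genes differ together between pools below. Capitals mark CACCC or its reverse complement GGGTG, the core of the box that KLF factors are known to bind, which do not overlap each other here. Each runs 5′ to 3′ on the strand of its gene, S1pr4 at chr10:81500138-81500387 on the minus strand, S1pr5 at chr9:21248444-21248693 on the minus strand, and Klf2 at chr8:72318812-72319061 on the plus strand.
S1pr4: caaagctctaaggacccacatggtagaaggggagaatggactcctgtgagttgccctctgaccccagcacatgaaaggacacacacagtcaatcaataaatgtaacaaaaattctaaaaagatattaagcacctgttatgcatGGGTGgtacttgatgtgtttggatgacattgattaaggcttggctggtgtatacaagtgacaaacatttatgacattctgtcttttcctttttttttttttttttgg
S1pr5: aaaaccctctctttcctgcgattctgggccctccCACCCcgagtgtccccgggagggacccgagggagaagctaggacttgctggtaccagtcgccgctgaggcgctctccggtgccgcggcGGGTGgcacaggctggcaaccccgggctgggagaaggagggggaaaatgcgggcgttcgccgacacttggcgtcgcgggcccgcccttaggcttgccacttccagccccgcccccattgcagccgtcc
Klf2: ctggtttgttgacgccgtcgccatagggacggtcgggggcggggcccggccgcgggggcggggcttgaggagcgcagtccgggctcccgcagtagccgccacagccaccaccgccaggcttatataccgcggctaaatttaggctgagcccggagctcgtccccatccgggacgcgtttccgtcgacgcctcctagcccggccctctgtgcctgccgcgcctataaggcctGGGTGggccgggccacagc
The *S1pr4* window held 1 match, 107 bases before the start. The *S1pr5* window held 2, at 216 and 128 bases, and the *Klf2* window 1, at 19 bases. At least 1 match was found in 52.0% of 32851 upstream windows of this length, and at least 2 in 21.1%, so a match in each of the windows is a description and not a binding site.

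*Ccr7* (ENSMUSG00000037944; chromosome 11, 99144199 to 99155077) reached 4267 ± 470 in mature-marker dendritic cells, with a lowest pool of 3616. B cells had 1084 ± 143 and a highest pool of 1384. T cells followed with 539 ± 178 in Foxp3-positive and 410 ± 191 in Foxp3-negative CD4 T cells and 349 ± 133 in Lef1+ or Dapl1+ CD8 T cells, whose ranges overlapped.

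NK cells had a mean *Ccr7* of 6.02 ± 8.27, close to the 5.15 ± 7.73 of macrophages and monocytes. Endothelial cells had none.

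*Cd69* (ENSMUSG00000030156; chromosome 6, 129267324 to 129275375) was 551 ± 112 in B cells, 472 ± 110 in Ly6c2+ CD8 T cells, 464 ± 62.3 in Foxp3-negative CD4 T cells, and 463 ± 87.4 in Lef1+ or Dapl1+ CD8 T cells, all overlapping. Pdcd1+ Havcr2+ CD8 T cells had 250 ± 175. Neutrophils stood at 155 ± 42.8 and keratin-positive tumor cells at 0.861 ± 1.49.

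The genes of most similar pattern over the 19 gates were found by Pearson's r of log2 levels among 12306 genes. The gates share libraries and cells of the same pools, so these are descriptions. For *S1pr1* they were 4833403J16Rik (0.913), Ehd3 (0.900), and Dtx1 (0.898), and for *S1pr4* Gimap1 (0.978), Jakmip1 (0.963), and Ptprcap (0.955). *S1pr5* was followed by Klra9 (0.940), an NK cell receptor, Trdv2-2 (0.919), and Khdc1a (0.904). The nearest genes were Gle1 (0.854), Pde2a (0.804), and Rcc2 (0.784) for *Klf2*, Zc3h12d (0.860), Arl5c (0.811), and Zmiz2 (0.809) for *Ccr7*, and Cd37 (0.952), Arhgdib (0.938), and Herc3 (0.927) for *Cd69*.

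In CD8 T cells, 4 members were higher in every pool with PancVAX than in every pool without it: *S1pr1*, *S1pr4*, *S1pr5*, and *Klf2*. *Ccr7* and *Cd69* overlapped. Because the members were chosen on this contrast, nothing is read from the count. Of all 10773 genes, 26.5% did not overlap between the pools in either direction, and 12.1% were called different by edgeR's quasi-likelihood test.

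*S1pr1* was 22.5, 27.3, 17.2, and 32.4 without PancVAX (anti-CTLA-4, anti-PD-1, both antibodies, and isotype) and 122, 150, 148, and 129 with it (alone, with anti-CTLA-4, with anti-PD-1, and with both). *S1pr4*, in the same order, was 36.9, 39.8, 39.5, and 35.1 without and 87.1, 96.0, 116, and 107 with PancVAX. The vaccinated pools were thus on average 5.53 times as high for *S1pr1* and 2.69 times for *S1pr4*, with log2 fold changes of 2.43 ± 0.13 (SE) and 1.35 ± 0.08.

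*S1pr5* had no UMI in 3547 CD8 T cells of the pools without PancVAX, which allows a share of up to 0.0846% of cells with a UMI. The pools with PancVAX had 44 UMIs in 6034 cells, 10, 16, 11, and 7 in the order above. At the floor of 3 counts over the group without, this is at least 11.1-fold higher, and intervals and floors here cover counting error only.

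*Klf2* was 279, 296, 255, and 272 without and 858, 998, 513, and 685 with PancVAX, a log2 fold change of 1.35 ± 0.13. The lowest of the vaccinated pools, PancVAX + Anti-PD-1, was also the lowest of the 4 vaccinated pools for *Klf2* in 15 of 19 gates. In keratin-positive tumor cells it had 478, against 704 to 1598 in the other vaccinated pools and 590 to 873 in pools without PancVAX.

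*Ccr7* was 69.3, 131, 56.4, and 101 without and 95.1, 109, 66.8, and 80.5 with PancVAX. With a log2 fold change of -0.07 ± 0.20 and overlapping pools, no rise of *Ccr7* was seen over all CD8 T cells. *Cd69* was 292, 268, 320, and 179 without and 448, 412, 265, and 331 with PancVAX, a log2 fold change of 0.37 ± 0.17 with overlapping pools.

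**Figure D2:**
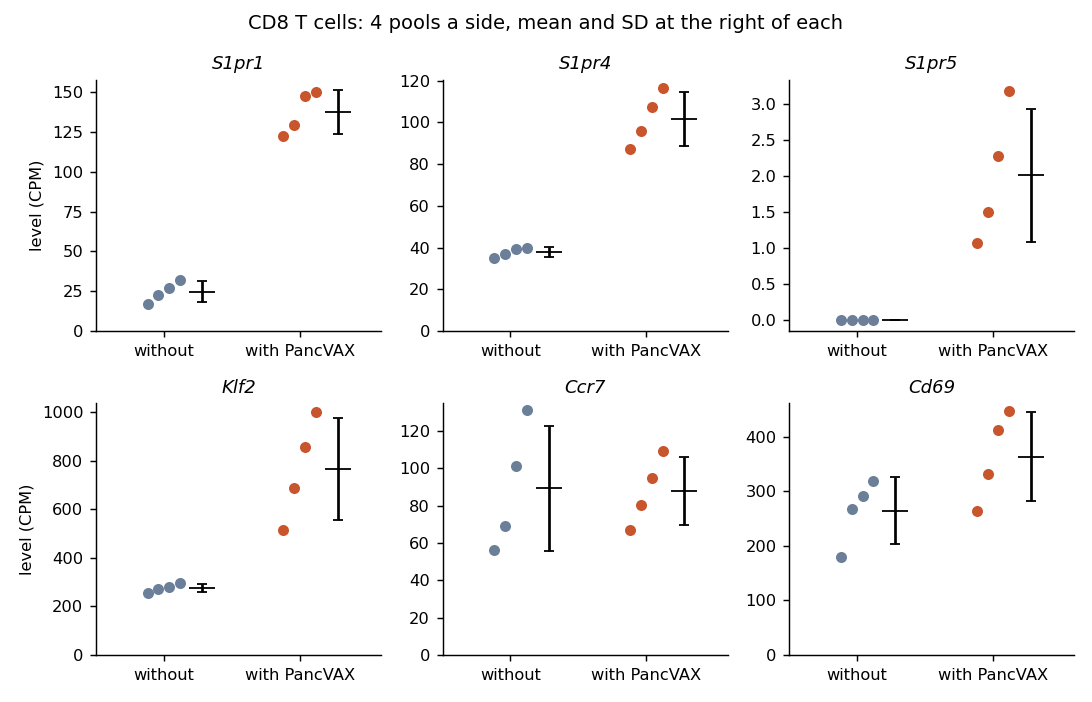
Level of each gene in CD8 T cells, in CPM, 1 point a pool (4 without and 4 with PancVAX, sorted by level) with mean and SD beside them. The pools do not overlap for *S1pr1*, *S1pr4*, *S1pr5*, and *Klf2* and overlap for *Ccr7* and *Cd69*.

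Levels within each preparation are given as a description too. The preparations of a treatment may come from the same animals, so they are not counted as independent of each other. *S1pr1* with PancVAX was 4.80 times as high in whole-tumor libraries and 6.35 times in Percoll libraries, *S1pr4* 2.75 and 2.69 times, and *Klf2* 3.19 and 2.46 times, without overlap. *S1pr5* did not overlap in Percoll libraries and overlapped at 0 in whole-tumor libraries. *Cd69* did not overlap in whole-tumor libraries, 81.9 to 140 without and 156 to 276 with PancVAX, and overlapped in Percoll libraries. The share over all genes was not computed by preparation, so nothing is read from these overlaps.

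Other features of the CD8 gate moved with PancVAX too. The Ly6c2+ Pdcd1- gate was 6.45% to 8.67% of CD8 T cells without and 27.1% to 35.5% with PancVAX, and the Pdcd1+ Havcr2+ gate 7.93% to 11.7% and 3.87% to 4.55%. Summed tumor keratins in the CD8 gate were 16.3 to 32.0 without and 34.3 to 54.6 with PancVAX, neutrophil markers 3.94 to 6.42 and 6.43 to 13.5, B cell markers 1.87 to 4.43 and 4.52 to 7.95, and macrophage markers 50.1 to 62.3 and 53.9 to 71.5. Of these classes, B cells had *S1pr1* at a mean of 105 and tumor cells *Klf2* at 786, while *S1pr1* and *S1pr4* were below 1 in tumor cells. The part of these shifts in the member values was not tested.

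Within CD8 gates, *S1pr4* was higher in every pool with PancVAX in 6 of 6 gates and *S1pr1* in 5 of 6. *S1pr1* in Ly6c2+ cells was 54.5 to 75.5 without and 188 to 213 with PancVAX, in Pdcd1+ Havcr2+ cells 0 to 2.65 and 24.9 to 60.8, and in cycling-marker cells 7.40 to 16.7 and 79.1 to 134. Only in Lef1+ or Dapl1+ cells, the gate of naive markers, did the *S1pr1* ranges overlap, 110 to 190 without and 165 to 216 with. Of all genes tested, 8.67% did not overlap in the Pdcd1+ Havcr2+ gate, where 3 of 5 members past the filter on low counts were higher, and 11.1% in the Tcf7+ or Slamf6+ gate, where 2 of 5 were. *Klf2* did not overlap in 3 of the 6 gates, the cycling-marker, Pdcd1+ Havcr2+, and other cells. It overlapped in Ly6c2+ cells (652 to 870 without and 766 to 1299 with) and in Lef1+ or Dapl1+ cells (1059 to 1292 and 683 to 1398). The share over all genes was not computed in the cycling-marker and other gates. Nothing is therefore read from the counts over the 6 gates.

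*Ccr7* was lower in every pool with PancVAX in 2 of the 6 gates and overlapped in the other 4. In Ly6c2+ cells it was 103 to 242 without and 20.5 to 44.0 with PancVAX, and in Lef1+ or Dapl1+ cells 351 to 504 and 120 to 339. Among all genes tested, 16.3% did not overlap in the Ly6c2+ gate, where 2 of the 5 members past the filter on low counts were higher and 1 lower, and 14.1% in the Lef1+ or Dapl1+ gate, where 1 was higher and 1 lower. *S1pr5*, too low for that filter, had no UMI in Ly6c2+ cells without PancVAX and 6, 10, 3, and 4 UMIs with it (alone, with anti-CTLA-4, with anti-PD-1, and with both), and it overlapped in the other 5 gates. *Cd69* overlapped in all 6 CD8 gates.

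**Figure D3:**
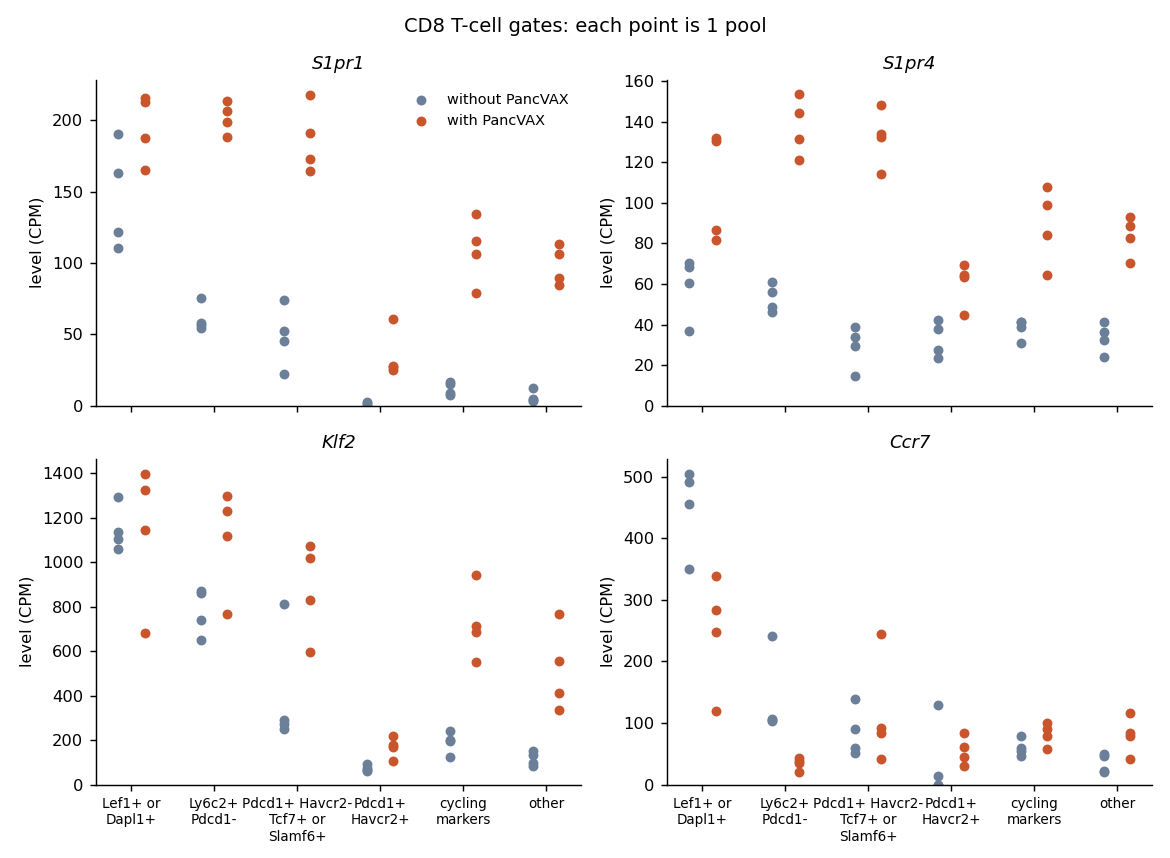
Level of *S1pr1*, *S1pr4*, *Klf2*, and *Ccr7* in CPM in 6 gates of CD8 T cells, 1 point a pool, blue without and orange with PancVAX. *S1pr1* in Ly6c2+ cells is 54.5 to 75.5 without and 188 to 213 with PancVAX, whereas *Ccr7* there is 103 to 242 without and 20.5 to 44.0 with.

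Foxp3-negative CD4 T cells had 2 members without overlap, where 8.02% of all genes did not overlap. *S1pr1* was 60.8, 77.0, 123, and 140 without (both antibodies, anti-CTLA-4, anti-PD-1, and isotype) and 201, 162, 194, and 214 with PancVAX (alone, with both, with anti-PD-1, and with anti-CTLA-4). *S1pr4* was 39.3, 26.9, 40.1, and 46.6 without and 82.7, 86.3, 113, and 91.8 with PancVAX. In Foxp3-positive CD4 T cells, NK cells, B cells, and mature-marker dendritic cells, all 6 members overlapped, counting those at 0 in every pool. In these gates 5, 2, 5, and 2 members passed the filter on low counts, and 4.47%, 4.76%, 4.22%, and 2.76% of all genes did not overlap, so 0 members is near the background. *S1pr1* in B cells, for example, was 88.9 to 116 without and 91.4 to 114 with PancVAX. The difference between cell types was not tested.

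Of 37 other genes of the pathway, 27 could be tested for PancVAX in CD8 T cells, and 5 were higher and 2 lower (edgeR's quasi-likelihood test, adjusted *P* below 0.05 and a log2 fold change beyond 0.5), where 12.1% of all genes were called. The integrin chain *Itgb7* rose by 2.12 ± 0.07 on the log2 scale, *Klf3*, a relative of *Klf2*, by 1.47 ± 0.14, and the CXCL12 receptor *Cxcr4* by 1.02 ± 0.19. The gut-homing receptor *Ccr9* fell by 2.08 ± 0.59. The list was chosen with earlier results of this contrast known, so these counts are a description. The median over the list was 0.08, against 0.0064 over all genes.

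Pdcd1+ Havcr2+ cells were low in the egress genes. Set against Ly6c2+ Pdcd1- cells of the same pools, 4 of the 5 members tested were lower, where 20.3% of 5632 genes were called. *S1pr1* had a lowest, median, and highest pool of 0, 13.8, and 60.8 in Pdcd1+ Havcr2+ cells and 54.5, 132, and 213 in Ly6c2+ cells, and was lower in 8 of 8 pools.

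*Klf2* was 61.8, 101, and 219 in Pdcd1+ Havcr2+ cells against 652, 867, and 1299 in Ly6c2+ cells. These ranges did not overlap. The log2 fold changes were -3.12 ± 0.25 for *S1pr1* (adjusted *P* = 7.5e-10, edgeR's quasi-likelihood test), -3.11 ± 0.11 for *Klf2* (2.3e-16), -1.12 ± 0.14 for *S1pr4* (8.3e-07), and -1.13 ± 0.17 for *Cd69* (1.5e-05). The *S1pr1* fold joins pools with and without PancVAX, whose levels in both gates were unlike, as given above.

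*Cd69* was lower in 7 of 8 pools, and *S1pr4* in 8 of 8. *Ccr7* was higher in 5 of 8 pools and lower in 3, and missed the threshold at -0.86 ± 0.47 (adjusted *P* = 0.19). It was -0.22 without upper limits on cells, and without the filter on low counts, or in a stricter gate, it was called lower (-0.83 ± 0.18 and -3.05 ± 0.54). *S1pr5* was too low to test. Among the pathway genes 3 were higher and 7 lower of 20 tested, and among the lower ones *Klf3* fell by 3.94 ± 0.36, *Cxcr4* by 2.93 ± 0.26, *Itgb7* by 2.25 ± 0.15, and the epithelial-binding integrin *Itgae* by 1.93 ± 0.48. The median of the list was 0.02.

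Against the Pdcd1+ Havcr2- cells with *Tcf7* or *Slamf6*, a second comparison that shares the Pdcd1+ Havcr2+ cells, 4 of 5 members were lower, where 9.43% of 5787 genes were called. *Klf2* in the Tcf7+ or Slamf6+ cells was 249, 705, and 1072 (lowest, median, and highest pool), above the Pdcd1+ Havcr2+ cells in 8 of 8 pools, a log2 fold change of -2.34 ± 0.14 (adjusted *P* = 3.7e-14, edgeR). *S1pr1* was 22.0, 119, and 218 there, and differed by -2.80 ± 0.26 (adjusted *P* = 9.7e-10, edgeR), a fold that also joins pools with and without PancVAX.

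The other called members were weaker. *S1pr4* at -0.87 ± 0.20 (adjusted *P* = 0.0031) lost its call with DESeq2 (0.060) and in the stricter gate (0.55), which left 4 sums of cells and *Ccr7* too low to test. *Ccr7* at -1.31 ± 0.36 (adjusted *P* = 0.012) lost it with DESeq2 (0.22), without upper limits on cells (0.099), without the pool as a block (0.11), in either preparation alone (0.12 and 0.15), and without the pool of PancVAX (0.051) or of both antibodies (0.056). *Cd69* at -0.40 ± 0.18 was not called (0.19), and was called without PancVAX + Anti-CTLA-4 (0.014) and without upper limits on cells (0.028). Of 18 pathway genes tested 3 were higher and 5 lower, among them *Klf3* (-2.85 ± 0.39), *Cxcr4* (-2.55 ± 0.33), *Itgb7* (-1.90 ± 0.16), and the CXCL16 receptor *Cxcr6* (1.53 ± 0.12).

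Lef1+ or Dapl1+ cells and Ly6c2+ cells differed mainly in *Ccr7*. It was 120, 345, and 504 (lowest, median, and highest pool) in the naive-marker cells and 20.5, 73.3, and 242 in Ly6c2+ cells, higher in 8 of 8 pools, with a log2 fold change of 2.47 ± 0.13 (adjusted *P* = 8.9e-16, edgeR). It was the 1 member of 5 that was called, where 3.61% of 6336 genes were. *Klf2* differed by 0.33 ± 0.07 (adjusted *P* = 0.0024), under the size set for a call, and *S1pr1* by 0.32 ± 0.13 (0.15). Of 24 pathway genes 3 were higher and 3 lower, among them *Ccr9* (2.98 ± 0.85), the collagen-binding integrin *Itga1* (-0.74 ± 0.16), *Cxcr6* (-0.68 ± 0.14), and *Itga4* (-0.53 ± 0.11).

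NK cells were set against CD8 T cells of the same pools, a comparison in which 16.7% of 10532 genes were called by edgeR. *S1pr1*, *S1pr4*, *S1pr5*, and *Ccr7* did not pass the filter on low counts within NK cells, and entered the joint fit with CD8 T cells, so their levels are given and no fitted fold change or count of calls is read. *S1pr5* was 0, 27.6, and 59.5 in NK cells and 0, 0.535, and 3.18 in CD8 T cells, lowest, median, and highest pool, and higher in NK cells in 7 of 8 pools. *Ccr7* was 0, 2.58, and 20.01 in NK cells, on 0 to 3 UMIs a pool, and 56.4, 87.8, and 131 in CD8 T cells, so the ranges did not overlap.

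The pools without PancVAX overlapped between NK and CD8 T cells for the other receptors, *S1pr1* at 15.5 to 31.5 against 17.2 to 32.4 and *S1pr4* at 29.4 to 53.3 against 35.1 to 39.8, with *S1pr4* higher in NK cells in 3 of 4. With PancVAX *S1pr1* was 23.6 to 32.4 in NK cells, on 2 to 4 UMIs a pool, against 122 to 150 in CD8 T cells. *S1pr4* was 24.3 to 56.6, on 3 to 8 UMIs a pool, against 87.1 to 116. The share of all genes that stood apart between both gates in these pools was not computed. Nothing is therefore read from this split by PancVAX. *Klf2* at 0.47 ± 0.09 was under the size for a call, and passed it with DESeq2, in Percoll libraries alone, and in 3 other settings and 3 fits without 1 pool (PancVAX, PancVAX + Anti-PD-1, or PancVAX + Anti-CTLA-4). *Cd69* was not called, and was lower in NK cells in whole-tumor libraries alone (-0.52 ± 0.19). Of 26 pathway genes in the joint fit 8 were higher and 3 lower, among them the transcription factor *Eomes* (3.53 ± 0.15), *Cxcr6* (-3.40 ± 0.15), *Cxcr4* (1.91 ± 0.17), and *Itgae* (-1.58 ± 0.49). Within NK cells 2834 genes passed the filter on low counts, against 10532 in the joint fit. Which pathway genes did so is not given here, so these counts and folds are a description.

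Foxp3-positive CD4 T cells, the regulatory gate, had less *S1pr1*, *Klf2*, and *Cd69* than Foxp3-negative cells, 3 of 5 members tested, where 17.0% of 4875 genes were called. *S1pr1* was 27.1, 49.0, and 72.8 in the Foxp3-positive cells (lowest, median, and highest pool) and 60.8, 151, and 214 in the Foxp3-negative cells. *Klf2* was 307, 395, and 576 against 484, 712, and 1198. All 3 genes were lower in 8 of 8 pools, with log2 fold changes of -1.71 ± 0.17 for *S1pr1* (adjusted *P* = 3.1e-08, edgeR), -1.01 ± 0.14 for *Klf2* (3.6e-06), and -0.64 ± 0.11 for *Cd69* (4.2e-05).

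*Ccr7* was 0.38 ± 0.17 higher in Foxp3-positive cells but not called (adjusted *P* = 0.12). It was called with mitochondrial share under 5%, in Percoll libraries alone, and without the pool of Anti-CTLA-4 (0.52 ± 0.16) or of Isotype Control (0.55 ± 0.15). Of 17 pathway genes 5 were higher and 5 lower, among them *Itgae* (2.80 ± 0.16), *Klf3* (-2.12 ± 0.27), *Cxcr6* (-2.09 ± 0.17), and *Tbx21* (-1.24 ± 0.28), the factor of type 1 responses.

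In mature-marker dendritic cells *Ccr7* was 3616, 4265, and 4849 (lowest, median, and highest pool), against 0, 69.4, and 179 in type 1 and type 2 dendritic cells together, without overlap and with a log2 fold change of 5.66 ± 0.27 (adjusted *P* = 3.1e-15, edgeR). It was 1 of 3 members tested that was called, while 55.4% of 4091 genes were called, so a call is common here and the size of the fold is what is given. *Klf2* was -0.42 ± 0.21 and not called (0.088), and was called lower without the filter on low counts and without the pool of both antibodies (-0.54 ± 0.22) or of Isotype Control (-0.53 ± 0.22). Of 14 pathway genes 4 were higher and 6 lower, among them *Itgb7* (-4.80 ± 0.31), *Itgae* (-3.82 ± 0.38), *Itgb2* (-3.49 ± 0.28), and *Itga4* (1.83 ± 0.13).

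Cells of expanded CD8 clones, those that share a T cell receptor beta chain with at least 1 other cell of their library, had less *Klf2*, *Ccr7*, and *Cd69* than cells seen once, 3 of 5 members tested, where 7.38% of 8518 genes were called. The log2 fold changes over 8 Percoll libraries were -1.52 ± 0.27 for *Klf2* (adjusted *P* = 5.8e-04, edgeR), -1.81 ± 0.24 for *Ccr7* (3.7e-05), and -0.72 ± 0.10 for *Cd69* (5.5e-05). *S1pr4* differed by -0.37 ± 0.10 (0.020), under the size for a call.

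*S1pr1* at -1.13 ± 0.43 was not called (adjusted *P* = 0.090, edgeR), and its values are given by library. Without PancVAX, expanded cells had 2.41, 1.46, 0.604, and 0 for *S1pr1* (both antibodies, anti-CTLA-4, anti-PD-1, and isotype), 10 UMIs in 1319 cells, while single cells of the same libraries had 76.2, 73.8, 75.8, and 89.2. With PancVAX, expanded cells had 135, 103, 132, and 166 (alone, with both, with anti-PD-1, and with anti-CTLA-4), 901 UMIs in 1610 cells, against 116, 155, 166, and 158 in single cells. Across the libraries without PancVAX the ranges of expanded and single cells did not overlap, and across those with it they did. The share of all genes with such ranges was not computed, so nothing is read from this split. The values are given with no test because the vaccine enters the choice of members.

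*Klf2* followed with 166, 117, 93.0, and 90.4 in expanded and 743, 722, 825, and 636 in single cells without PancVAX. With PancVAX it was 656, 521, 338, and 761 in expanded and 942, 785, 552, and 910 in single cells. Over all CD8 T cells it was lower in the expanded cells of all 8 libraries. Within the Ly6c2+ gate with PancVAX the direction was mixed. There, in the same order, *Klf2* was 1205, 1031, 614, and 1323 in expanded and 1024, 1161, 748, and 943 in single cells. *Cd69* was 779, 590, 395, and 495 in expanded and 710, 484, 620, and 678 in single cells of that gate. *S1pr1* was called lower in expanded cells by DESeq2 (-3.04 ± 0.93, adjusted *P* = 0.017), with expanded set at 5 cells (-1.58 ± 0.40, adjusted *P* = 0.0088), without upper limits on cells (0.020), without the filter on low counts (1.6e-21), and without the PancVAX library (0.046).

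Expanded cells were 65.6% to 77.1% of CD8 T cells with a chain in libraries without PancVAX and 58.4% to 68.7% in those with it. The share of expanded cells in the Ly6c2+ gate was 1.92% to 3.38% and 19.1% to 27.5% without and with PancVAX. The Lef1+ or Dapl1+ gate made up 13.6% to 45.5% of single cells and 0% to 8.54% of expanded cells over the 8 libraries. Both shares moved with the member values, and their part in them was not tested. Within the Ly6c2+ gate with PancVAX, *S1pr1* was 261, 196, 247, and 260 in expanded cells (alone, with both, with anti-PD-1, and with anti-CTLA-4). Single cells of that gate had 148, 245, 211, and 184. Without PancVAX the gate held 3 to 11 expanded cells a library. Of 25 pathway genes tested between expanded and single cells 5 were higher and 6 lower, among them *Cxcr4* (-1.51 ± 0.24), *Itgae* (-1.46 ± 0.28), *Klf3* (-1.44 ± 0.43), and *Eomes* (-1.38 ± 0.17).

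**Figure D4:**
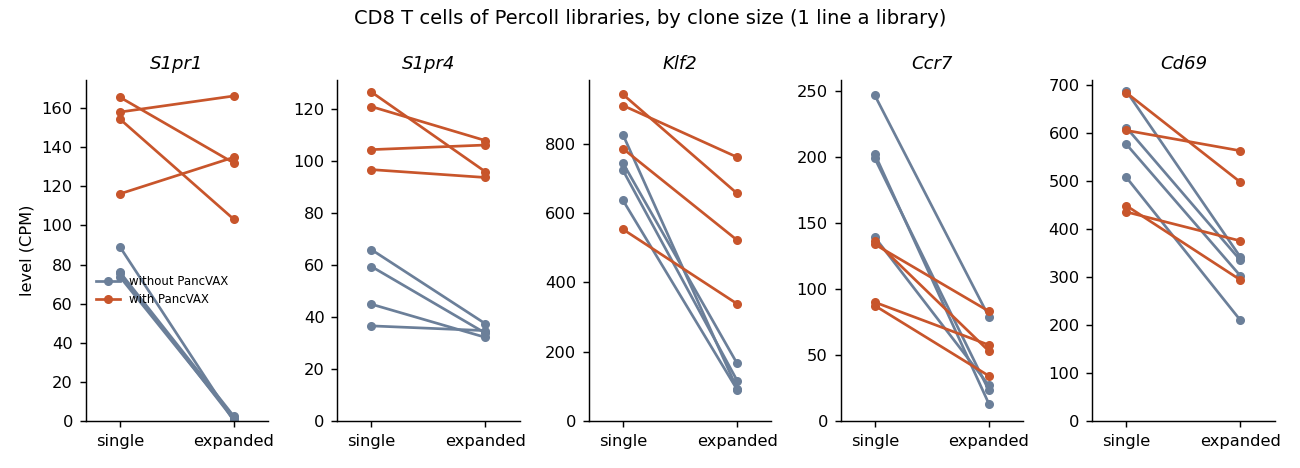
Level of 5 genes in CD8 T cells of single and expanded clones, in CPM, 1 line for each of 8 Percoll libraries, blue without and orange with PancVAX. *S1pr1* falls from between 73.8 and 89.2 to at most 2.41 in the libraries without PancVAX, and lies between 103 and 166 in expanded cells with it.

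Single CD8 T cells with an *S1pr1* UMI also had more *Klf2*. Each of the 9581 cells was thinned to 1000 UMIs, which left 920 with an *S1pr1* UMI, and these had a mean log2 ratio of 1.51 ± 0.80 (SD, n = 8 pools) for *Klf2* over the other cells, higher in 8 of 8 pools (exact two-sided sign-flip permutation test, *P* = 0.0078, the smallest it can give with 8 pools, adjusted for 2 relations 0.016). The mean joins unlike pools. With PancVAX, *Klf2* was 891 to 1722 in cells with an *S1pr1* UMI and 542 to 1045 in the others. Without PancVAX it was 1312.5 to 1533, on 15 to 26 cells a pool, and 273 to 330 in the others. Within Ly6c2+ Pdcd1- cells the *Klf2* ratio was 0.60 ± 0.45 over 7 pools. *Cd69* had a ratio of 0.30 ± 0.50 and was higher in 6 of 8 pools (exact permutation *P* = 0.11). That ratio rose to 0.59 ± 0.43 at 2000 UMIs and 0.78 ± 0.47 without thinning, each in 8 of 8 pools (exact permutation *P* = 0.0078 for both). At 1000 UMIs it was 0.73 ± 1.04 within Ly6c2+ Pdcd1- cells in 7 of 7 pools (exact permutation *P* = 0.016) and 0.75 ± 0.81 in the stricter gate in 7 of 8 (0.031), so it depends on the depth allowed and on the gate.

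No member passed the threshold for a single checkpoint antibody in fits that join pools with and without PancVAX. An effect that differs between these pools is averaged in such a fit. Of 26 tests of a member, in 6 comparisons of anti-PD-1 or anti-CTLA-4 with the pools that lacked it, 0 were called by edgeR's quasi-likelihood test and 7 had an unadjusted *P* below 0.05. The 26 include *S1pr5* for both antibodies in CD8 T cells. It had no UMI in any pool without PancVAX and passed the filter through the pools with it, so nothing is read from these tests. Over all genes, calls were 0 (0%) of 10773 in CD8 T cells and 0 (0%) of 2834 in NK cells for either antibody. At an unadjusted *P* below 0.05 there were 488 and 129 genes for anti-PD-1 and 409 and 122 for anti-CTLA-4. DESeq2 called 4 genes for anti-PD-1 and 1 for anti-CTLA-4 in CD8 T cells, and 0 in NK cells for both. In Foxp3-negative CD4 T cells 0.0377% of 5301 genes were called for anti-PD-1 and 0.0566% for anti-CTLA-4. There, 297 and 260 genes had an unadjusted *P* below 0.05.

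The lowest adjusted *P* was for *Klf2* with anti-CTLA-4 in NK cells. Its level was 1099, 1101, 868, and 732 in the pools with anti-CTLA-4 and 798, 431, 507, and 477 in those without, groups that overlap, with a log2 fold change of 0.79 ± 0.16 (adjusted *P* = 0.11, edgeR). It passed the threshold without the pool of PancVAX (0.94 ± 0.17) and without the filter on low counts (0.81 ± 0.16).

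In Foxp3-negative CD4 T cells *Klf2* was 716, 484, 622, and 524 with anti-PD-1 and 1198, 1123, 708, and 730 without it, a log2 fold change of -0.71 ± 0.15 (adjusted *P* = 0.16, edgeR). It passed without the pool of Anti-CTLA-4 (-0.84 ± 0.15), without upper limits on cells (-0.85 ± 0.15), and without the filter on low counts (-0.66 ± 0.13). *Ccr7* in the same cells was -0.65 ± 0.23 (adjusted *P* = 0.72) and passed without the pool of PancVAX + Anti-PD-1 + Anti-CTLA-4 (-1.10 ± 0.16).

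Both antibodies added to PancVAX also gave 0 of 5 members called in CD8 T cells, where 0.549% of 10012 genes were called. An unadjusted *P* below 0.05 (edgeR's quasi-likelihood test) was found for 3 of the members and for 882 of the 10012 genes. *Cd69* was 266 in the whole-tumor and 596 in the Percoll library of PancVAX, and 189 and 425 in those of PancVAX + Anti-PD-1 + Anti-CTLA-4, in CPM after TMM scaling. The fall of 0.51 ± 0.14 was not called over all 16 libraries (adjusted *P* = 0.12, edgeR), and was called in a fit of these 4 libraries alone (0.0021). Each treatment here is 1 pool with its 2 preparations standing as replicates, so the *P* values of this contrast and of the difference that follows measure the spread between libraries of a pool and not between pools.

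The same antibodies given without the vaccine went the other way for *Cd69*, from 82.3 and 312 in the whole-tumor and Percoll libraries of Isotype Control to 143 and 437 in those of Anti-PD-1 + Anti-CTLA-4. The difference between both effects was -1.11 ± 0.20 (adjusted *P* = 0.010, edgeR's quasi-likelihood test), the 1 of 5 members called, where 0.400% of 10012 genes were called. The call was lost in the stricter gate (adjusted *P* = 0.098), without upper limits on cells (0.094), without preparation as a replicate block (1.00), and without the whole-tumor library of PancVAX (0.074) or of Isotype Control (0.080) or the Percoll library of PancVAX + Anti-PD-1 + Anti-CTLA-4 (0.058) or of Anti-PD-1 + Anti-CTLA-4 (0.13). *S1pr1* had a difference of 0.98 ± 0.31 (adjusted *P* = 0.24), which passed only without the filter on low counts (0.99 ± 0.24). *Foxo1*, a transcription factor upstream of *Klf2*, was the 1 pathway gene of 27 called in either contrast, 0.52 ± 0.11 for the antibodies with PancVAX and 0.86 ± 0.16 for the difference.

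*Cd69* was higher in Percoll than in whole-tumor libraries. In CD8 T cells its level had a lowest, mean, and highest of 81.9, 169, and 276 in whole-tumor libraries and 314, 434, and 601 in Percoll libraries, with no overlap. The log2 fold change was 1.39 ± 0.07 (adjusted *P* = 6.6e-12, edgeR), the 1 of 5 members called, where 5.65% of 10012 genes were called. The Percoll library was higher in 8 of 8 treatments, and also in 8 of 8 for Foxp3-negative CD4 T cells, NK cells, B cells, neutrophils, and macrophages, and in 7 of 8 for Foxp3-positive CD4 T cells.

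In neutrophils *Cd69* was 101 ± 44.1 in whole-tumor and 196 ± 48.0 in Percoll libraries (SD, n = 8 each). *Ccr7* in CD8 T cells was lower in the Percoll library in 8 of 8 treatments, at -0.47 ± 0.08 (adjusted *P* = 2.0e-04), just under the size for a call, and passed it in the stricter gate (-0.77 ± 0.16) and without the pool of PancVAX + Anti-PD-1 + Anti-CTLA-4, PancVAX + Anti-CTLA-4, or Anti-PD-1 (-0.51 to -0.54). *S1pr1* (0.07 ± 0.09), *S1pr4* (0.15 ± 0.07), and *Klf2* (-0.13 ± 0.07) were not called. Of 27 pathway genes 3 were higher and 1 lower: *Rgs1* (0.85 ± 0.05), a regulator of chemokine signals, *Gna13* (0.80 ± 0.05), *Foxo1* (0.59 ± 0.06), and *Cxcr4* (-0.63 ± 0.15).

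**Figure D5:**
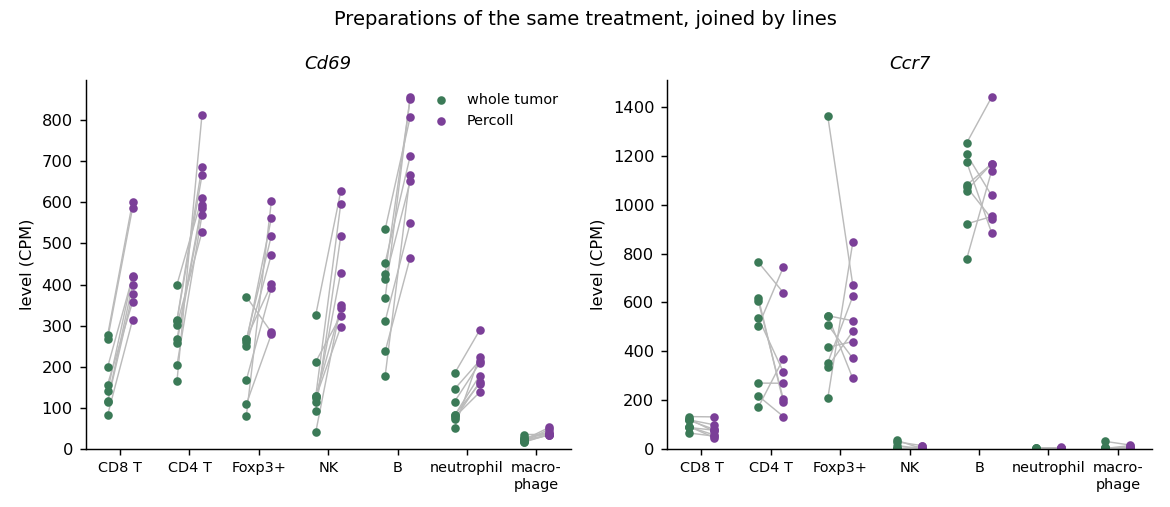
Level of *Cd69* and *Ccr7* in CPM in 7 gates, green for the whole-tumor and purple for the Percoll library, with lines joining libraries of 1 treatment. *Cd69* in CD8 T cells is 81.9 to 276 in whole-tumor and 314 to 601 in Percoll libraries, and *Ccr7* in B cells overlaps between preparations.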

How the data were processed

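Single-cell RNA libraries (16) and T cell receptor contigs of 8 Percoll libraries were analyzed. The deposited counts are raw UMI counts per gene and barcode, which the authors made with Cell Ranger 4.0.0 per the labels, which name mm10 as the build. Cells with 200 to 3000 genes, 1000 to 10000 UMIs, under 10% mitochondrial UMIs, and no hemoglobin were kept. A gate required UMIs of its own markers (at least 3 UMIs for T cells) and few of other classes. No doublet caller was run, and 18575 passed cells were in no gate. UMIs were summed by pool, or by library where stated, leaving out sums of fewer than 10 cells, and all genes past edgeR's filter on low counts were fitted (edgeR 4.0.16 in R 4.3.3, TMM scaling, quasi-likelihood test, Benjamini-Hochberg). Treatment effects had the other agents as covariates, gate and clone contrasts the pool or library as a block, and contrasts of libraries the preparation. The pairing comes from the design, since both gates are cells of the same pools. SEs are the log2 fold change over the root of F. A call needed an adjusted *P* below 0.05 and a log2 fold change beyond 0.5. Named genes were the 6 members, up to 5 called pathway genes of largest change in each comparison, and 3 genes of most similar pattern for each member. Of the pathway genes, 1 is not reported here, though the counts include it. On simulated counts the test recovered 87.0% of 100 genes changed 2-fold for anti-PD-1 in CD8 T cells, 92.6% of 95 for Pdcd1+ Havcr2+ against Ly6c2+ cells, and 65.0% of 100 for both antibodies added to PancVAX. It made 9, 6, and 12 false calls in these comparisons. The simulated counts held no other effect of treatment, gate, pool, or preparation, so these shares need not hold for the real data. For both antibodies the simulated spread was that between libraries and not between pools. DESeq2 1.42.0 was an alternative, with other filters, gates, and left-out pools. The members and lists were chosen with earlier results of these data known. Upstream sequences of *S1pr1*, *Ccr7*, and *Cd69* were not used here.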

Additional observations from a re-analysis of the deposited data

Results flagged for a closer look

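In groups of 4 pools a single pool was set against the others by Dixon's criterion, which chance passes in about 1 of 20 groups, and 7 of 84 groups held such a pool. All values are levels in CPM. In Pdcd1+ Havcr2+ CD8 T cells, *S1pr1* in the pools with PancVAX was 60.8 for PancVAX + Anti-CTLA-4 and 24.9 to 28.1 in the others. In the same gate without PancVAX, *Ccr7* was 129 for Anti-PD-1 and 0 to 13.2 in the others, and *Cd69* was 84.8 for Isotype Control and 184 to 196 in the others. In Pdcd1+ Havcr2- cells with *Tcf7* or *Slamf6*, *Klf2* without PancVAX was 813 for Isotype Control, a gate of 15 cells there, and 249 to 292 in the others. In Ly6c2+ cells without PancVAX, *S1pr1* was 75.5 for Anti-PD-1 + Anti-CTLA-4 and 54.5 to 57.8 in the others, and *Ccr7* was 242 for Isotype Control, with 41 cells, and 103 to 106 in the others. In B cells without PancVAX, *S1pr1* was 88.9 for Anti-PD-1 and 114 to 116 in the others.

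The effect of both antibodies on *Cd69* in CD8 T cells differed with and without PancVAX by -1.11 on the log2 scale. The settings and libraries that end this call are given beside it in the report.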

How the results depend on the processing

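Of 1165 recomputed tests of a member, 1107 kept their side of the threshold, 19 lost a call, 39 gained one, and 0 reversed a call. A sign changed in 48 values, all uncalled or *Ccr7* with PancVAX. The description of the 6 members with PancVAX in CD8 T cells gave 89 recomputed values, of which 11 moved by more than a limit set from the SE of the main log2 fold change. *S1pr1* stayed within 2.17 to 2.78, *S1pr4* within 1.23 to 1.57, *Klf2* within 1.21 to 1.55, *Cd69* within 0.17 to 0.85, and *Ccr7* within -0.25 to 0.25. Depth limits *S1pr5*, with 44 UMIs in CD8 T cells, and the members in NK cells, where 4 were too low to test for the antibodies. Why a value moved was not tested.

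Members called. Without the filter on low counts, 2 were called for anti-PD-1 in CD4 T cells (0 in the main test), 1 for anti-CTLA-4 in NK cells (0), 2 for the difference between the effects of both antibodies (1), and 2 in mature-marker dendritic cells (1). Without upper limits on cells, the counts were 1 for anti-PD-1 in CD4 T cells, 0 for the difference, and 5 for expanded clones (3). The stricter gate gave 0 for the difference, 2 for Pdcd1+ Havcr2+ against Tcf7+ or Slamf6+ cells (4), and 2 for preparation (1). DESeq2 gave 2 for Pdcd1+ Havcr2+ against Tcf7+ or Slamf6+ cells. A fit of the compared libraries alone gave 1 for both antibodies added to PancVAX (0). Without the replicate block, 0 were called for the difference. In NK cells against CD8 T cells the count went from 4 to 1 without the block, and neither is read as a result, since these members are too low to pass the filter within NK cells. For preparation, clones, and the other gate contrasts, removing the block moved no count of members called beyond 1.5 times.

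Genes called, with the main count in parentheses. For anti-PD-1 in CD8 T cells (0), DESeq2 gave 4, no filter on low counts 32, and no upper limits 2. For anti-PD-1 in CD4 T cells (2), DESeq2 gave 1, no filter 50, the stricter gate 0, mitochondrial share under 5% 1, no upper limits 5, the 16 libraries with preparation as a replicate block 0, and whole-tumor libraries 0. For anti-PD-1 in NK cells (0), no filter gave 4 and the stricter gate 1. For anti-CTLA-4 in CD8 T cells (0), DESeq2 gave 1, no filter 24, and the stricter gate 1. For anti-CTLA-4 in CD4 T cells (3), no filter gave 40, the stricter gate 0, no upper limits 1, and the replicate block 0. For anti-CTLA-4 in NK cells (0), no filter gave 2 and the stricter gate 3. For both antibodies added to PancVAX (55), DESeq2 gave 22, no filter 122, the stricter gate 35, no upper limits 88, and no replicate block 0. For the difference (40), DESeq2 gave 17, no filter 148, and no replicate block 2. For Pdcd1+ Havcr2+ against Ly6c2+ cells (1143), whole-tumor libraries gave 626. For Pdcd1+ Havcr2+ against Tcf7+ or Slamf6+ cells (546), DESeq2 gave 353, the stricter gate 78, whole-tumor libraries 131, and Percoll libraries 297. For naive-marker against Ly6c2+ cells (229), DESeq2 gave 138, no replicate block 83, and Percoll libraries 102. For Foxp3-positive cells (830), the stricter gate gave 384 and whole-tumor libraries 422. For mature-marker dendritic cells (2265), no upper limits gave 4014, no replicate block 1472, whole-tumor libraries 1494, and Percoll libraries 920. For clones (629), no replicate block gave 356. For preparation (566), DESeq2 gave 366 and no replicate block 318.

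Levels and ratios. *Ccr7* in mature-marker dendritic cells was 3752 in whole-tumor and 5328 in Percoll libraries (4267), and *Cd69* in B cells 365 and 695 (551). The log2 ratio of *Cd69* in cells with an *S1pr1* UMI (0.30) was 0.78 without thinning, 0.59 at 2000 UMIs, 0.73 in Ly6c2+ cells, and 0.75 in the stricter gate. In Pdcd1+ Havcr2+ cells, with 10 such cells in 5 pools, it was 1.71, and that of *Klf2* (1.51) was 2.48.

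With 1 pool or library left out in turn, genes called ranged from 0 to 5 for anti-PD-1 in CD8 T cells, 1 to 7 in CD4, and 0 to 1 in NK cells, from 0 to 2 for anti-CTLA-4 in CD8, 0 to 5 in CD4, and 0 to 2 in NK cells, from 15 to 35 for both antibodies added to PancVAX, and from 12 to 48 for the difference. Genes called in the gate, clone, and preparation contrasts moved as well and are not listed here. Members called ranged from 0 to 1 for anti-PD-1 in CD4 T cells, for anti-CTLA-4 in NK cells, and for the difference. They ranged from 1 to 2 for mature-marker dendritic cells and for preparation, and from 3 to 4 for Foxp3-positive cells and for clones. For Pdcd1+ Havcr2+ against Tcf7+ or Slamf6+ cells the range was 3 to 5. NK cells against CD8 T cells gave 4 to 5, which is not read as a result.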
